A study of Mus musculus with 8 samples.

Results

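Integrins, laminins and the proteins that link them into basement membranes were followed through RNA-seq counts from mouse lung myofibroblasts. The set comprised 40 genes of the 43432 in the counts table, taken by symbol: 18 integrin alpha subunits, 8 integrin beta subunits, 10 laminin chains, 2 nidogens and the proteoglycans perlecan (Hspg2) and agrin (Agrn). The cells came from lungs at postnatal day 7 on a C57BL/6 background. In 4 libraries the label was Fra-2 transgenic, with constitutive expression of Fra-2, although their source label also holds the word control. The other 4 were control libraries labelled wildtype. Fra-2, encoded by Fosl2, is a transcription factor of the AP-1 family. The sources used here do not state the promoter of the transgene, how the cells were purified or whether each library is a separate animal. A p-value therefore reflects the spread among these 8 libraries, which may be technical.

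Integrins are receptors made of 1 alpha and 1 beta subunit that join the matrix outside a cell to its actin cytoskeleton. Laminins are cross-shaped trimers of an alpha, a beta and a gamma chain and form the sheet of a basement membrane. Nidogens bridge that sheet to the collagen IV network, and perlecan and agrin are heparan sulfate proteoglycans that bind laminin, growth factors and the receptor dystroglycan. In the lung at this age, myofibroblasts lay down elastin at the tips of the growing septa and use integrins to hold and pull on that matrix.

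Fosl2 was not higher beyond the spread between libraries in the libraries that carry the transgene label. It measured 166, 134, 126 and 104 CPM (read counts scaled to library size) in those libraries, against 105, 117, 141 and 119 CPM in the controls. The log2 fold change was 0.14 (SE 0.136, adjusted p = 0.888 in edgeR) and an exact two-sided permutation test gave p = 0.457, where 0.0286 is the smallest p possible. The group is therefore named by its label throughout, as the Fra-2-labelled libraries. Total counts were 29926239 to 38954848 in the Fra-2-labelled libraries and 31986025 to 41335957 in the controls. The summed level of 10 myofibroblast and smooth muscle markers was 16684 to 18801 CPM in the Fra-2-labelled libraries and 17028 to 18767 CPM in the controls. Single markers of this list did differ. Of the 10, 6 had a log2 fold change above 0, with a median of 0.07. At an unadjusted p under 0.05 in edgeR, 1 was higher and 2 were lower, where 5.17% of all tested genes were higher and 3.53% lower. After adjustment edgeR, DESeq2 and limma-voom each called 0 higher and 1 lower, where edgeR called 0.298% of all tested genes lower. Summed levels of 10 leukocyte markers were 92.7 to 123 CPM in the Fra-2-labelled libraries against 78.3 to 117 CPM in the controls, and those of 8 endothelial markers 67.4 to 82.6 (Fra-2-labelled) against 48.2 to 68.2 CPM (controls). Those of 10 epithelial markers were 88.2 to 179 CPM (Fra-2-labelled) against 50.1 to 117 CPM (controls), and those of 4 mesothelial markers 5.13 to 10.4 (Fra-2-labelled) against 2.73 to 5.2 CPM (controls). Those of 6 pericyte markers were 1430 to 1734 CPM in the Fra-2-labelled libraries against 1709 to 2037 CPM in the controls. Rgs5, the most abundant of these 6 in CPM, averaged 1025 ± 141 CPM in the Fra-2-labelled libraries and 1391 ± 95.7 CPM in the controls (adjusted p = 0.092 in edgeR). The log2 fold change was above 0 for 4 of the 6, with a median of 0.25, among them Pdgfrb at 443 ± 20.5 CPM in the Fra-2-labelled libraries and 350 ± 41.6 CPM in the controls (adjusted p = 0.194 in edgeR). The groups did not overlap for either gene. Of the 6, 0 passed in edgeR. At an unadjusted p under 0.05 in edgeR, 2 were higher and 1 lower, beside 5.17% and 3.53% of all tested genes. DESeq2 called 0 higher and 1 lower, beside 272 genes higher and 97 lower over the whole table, and limma-voom called 0. Summed levels of 6 adventitial fibroblast markers were 1185 to 1393 CPM (Fra-2-labelled) against 1075 to 1305 CPM (controls). In the other lists a log2 fold change above 0 was found for 4 of 10 tested leukocyte markers, 7 of 8 endothelial, 6 of 9 epithelial, 3 of 3 mesothelial and 5 of 6 adventitial ones. At an unadjusted p under 0.05 in edgeR, 1 endothelial marker (Tek, adjusted p = 0.253) and 1 mesothelial marker (Msln, adjusted p = 0.331) were higher. In the leukocyte, epithelial and adventitial lists 0 were. Control 1 was the lowest of the 8 libraries for the leukocyte, endothelial, epithelial and mesothelial sums. Of these lists, the one marker with no count in some library was the mesothelial Wt1. The part of these other cell types in the levels of the members was not tested.

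The most abundant member per length was Itgb1, the beta subunit shared by most matrix receptors. It measured 483 ± 36.3 CPM per kb of exonic length in the Fra-2-labelled libraries and 475 ± 28.4 CPM per kb in the controls (SD, n = 4 each, as in all such values). Lamc1, the gamma chain of most laminins, followed at 332 ± 18.9 CPM per kb (Fra-2-labelled) and 288 ± 31.1 CPM per kb (controls), then the nidogen Nid1 at 261 ± 41.6 CPM per kb (Fra-2-labelled) and 237 ± 29.4 CPM per kb (controls). Itga9, whose product pairs with beta1 to bind tenascin-C, measured 210 ± 13.2 CPM per kb (Fra-2-labelled) and 208 ± 4.10 CPM per kb (controls). The ranges of Lamc1 and Nid1 over the 8 libraries overlapped, as did those of Nid1 and Itga9, while Itgb1 lay above all of them. The next member, Lamb1, lay below all 4, at 97.7 ± 5.27 CPM per kb (Fra-2-labelled) and 82.6 ± 1.22 CPM per kb (controls). From Lamb1 down to Lama2 each member overlapped its neighbour in the order Lamb1, Lama4, Lamb2, Hspg2, Itga5, Itgb5, Itgav and Lama2.

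**Figure D1:**
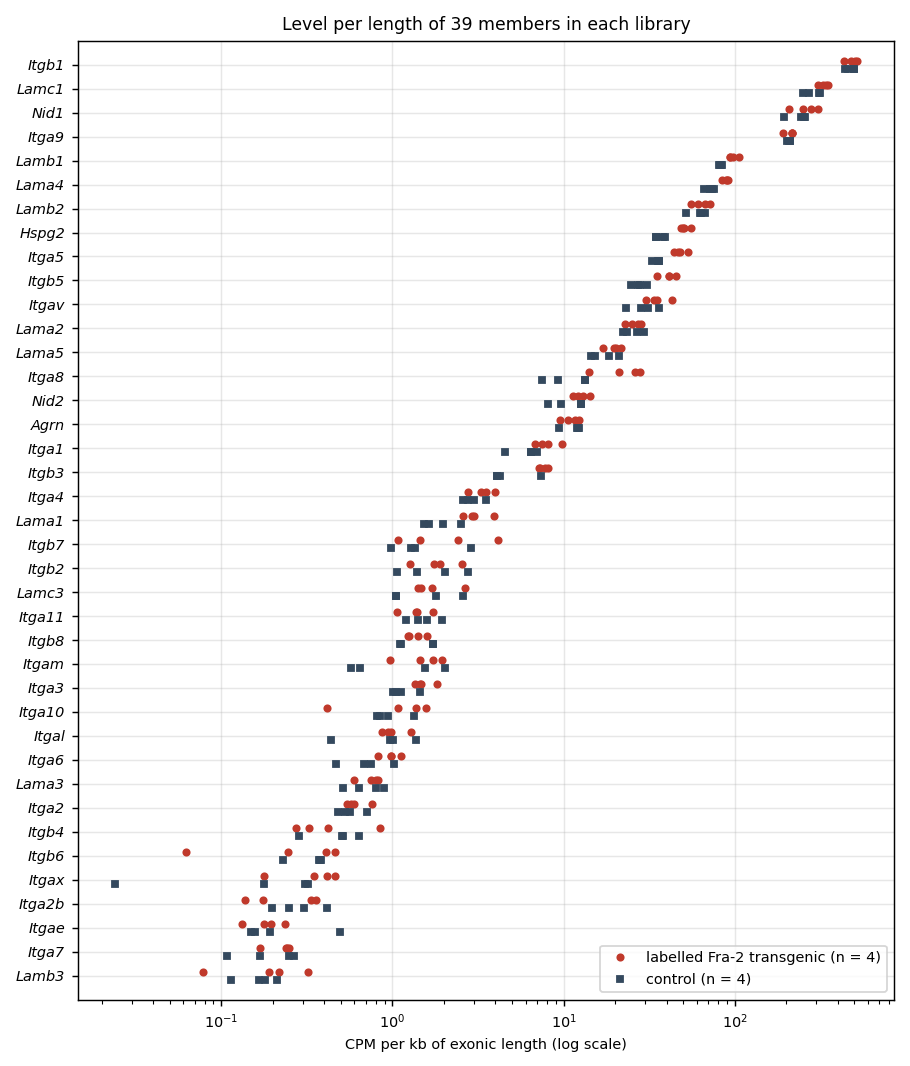
Level of 39 members in CPM per kb of exonic length on a log axis, 1 point per library, with the Fra-2-labelled libraries as circles drawn above the control libraries as squares for each gene. Members are ordered by their mean over the 8 libraries, from Itgb1 at 479 to Lamb3 at 0.185 CPM per kb. Itgad, with at most 2 counts in any library, is left out.

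Of the 39 members tested, 3 rose in the Fra-2-labelled libraries and 0 fell, at an edgeR p under 0.05 after adjustment over 15422 genes. These 3 were Itgb5, Hspg2 and Itga5. They are 7.69% of the tested members, where 0.72% of all tested genes were called higher and 0.298% lower, 1.02% together. For lower levels the count of members was also 0 at an unadjusted p under 0.05, by DESeq2 and by limma-voom. Another 7 members had a higher level at an unadjusted edgeR p under 0.05 alone, namely Itga8, Lama1, Lama4, Itgb3, Lamb1, Itga1 and Itga3. Together with the called ones these are 25.6% of the tested members, where 5.17% of all tested genes were higher and 3.53% lower at that level, 8.71% together. The log2 fold change was above 0 for 32 of the 39 members (82.1%) and for 47.8% of all tested genes, and no member changed sign under another scaling. The median was 0.18 over the members and -0.01 over all tested genes. Above a mean level of 10 CPM, a log2 fold change above 0 was found for 20 of 22 members and for 50.5% of 8080 genes. In such bulk libraries a change in the number of cells of a type and a change in RNA per cell cannot be told apart.

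**Figure D2:**
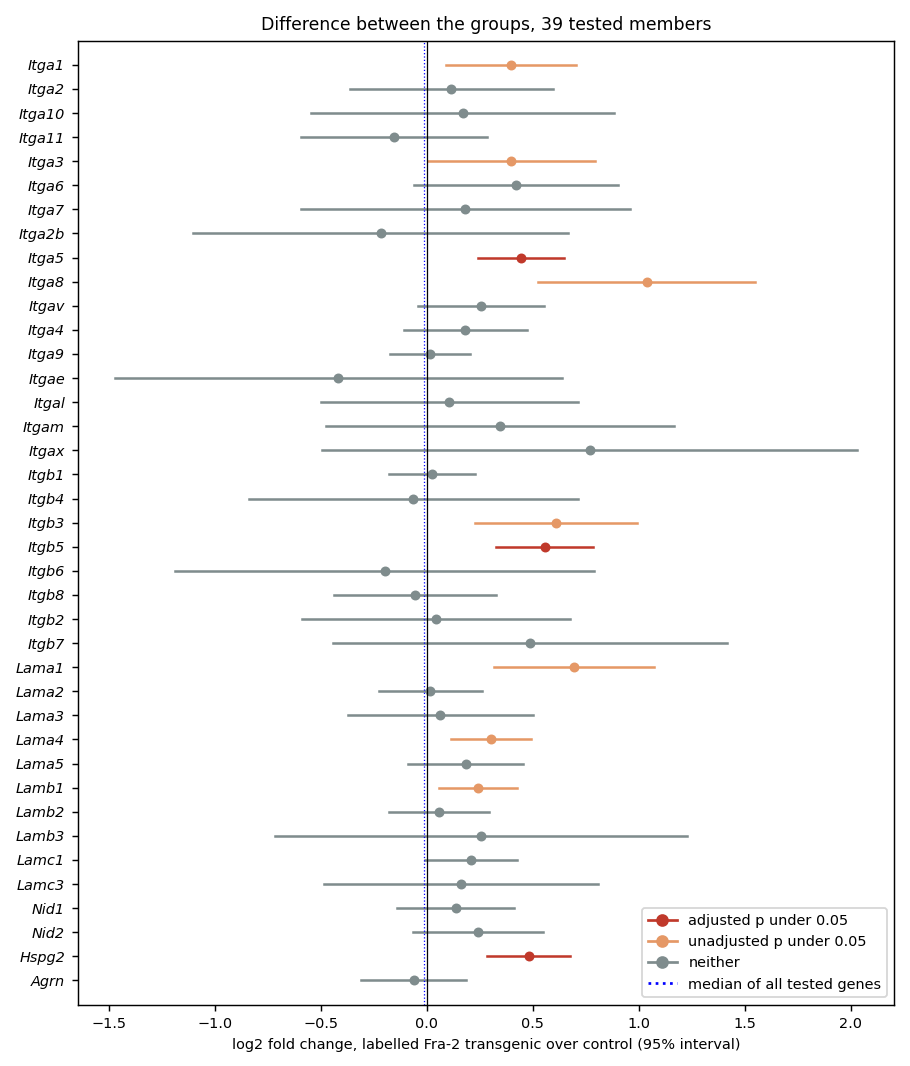
Log2 fold change of the 39 tested members, Fra-2-labelled libraries over control libraries, with 95% intervals, coloured by whether the adjusted or the unadjusted edgeR p was under 0.05. The points of Itgb5, Hspg2 and Itga5 lie at 0.56, 0.48 and 0.45, that of Itga8 lies farthest right at 1.04, and Itgb1 and Itga9 lie at 0.03 and 0.02 with narrow intervals.

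Among the beta subunits that pair with the alpha-v chain, Itgb5, whose product forms a vitronectin receptor with alpha-v, was the most abundant per length. The gene (ENSMUSG00000022817) lies at chr16:33829665-33949338 on the plus strand of GRCm38. It measured 147, 161, 146 and 124 CPM in the Fra-2-labelled libraries and 88.4, 99.0, 96.5 and 110 CPM in the controls. All 4 Fra-2-labelled libraries lay above all 4 controls. Itgb5 rose 1.47-fold, a log2 fold change of 0.56 (SE 0.106, adjusted p = 0.0215 in edgeR). The call was lost without control 1, 2 or 3 or without Fra-2 library 1 or 3, where the adjusted p reached 0.0894, and the log2 fold change stayed between 0.50 and 0.62 over all 16 other settings. The vitronectin gene Vtn was scarce, at 1.25 ± 0.205 CPM in the Fra-2-labelled libraries and 0.954 ± 0.322 CPM in the controls (adjusted p = 0.893 in edgeR).

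Itgb3, the beta subunit of a second vitronectin and fibronectin receptor, is also carried by platelets, where it pairs with Itga2b. It measured 43.0, 42.1, 47.7 and 46.0 CPM in the Fra-2-labelled libraries and 24.3, 24.1, 25.2 and 43.7 CPM in the controls. Control 4 lay among the Fra-2-labelled libraries and the other 3 controls lay far below, so the groups overlapped in that library alone. The log2 fold change of 0.61 did not pass (SE 0.177, adjusted p = 0.173 in edgeR). Without control 4 it was 0.87 with an adjusted p of 0.00261. The 6 platelet markers summed to 4.77 to 13.2 CPM in the Fra-2-labelled libraries and 5.54 to 15.2 CPM in the controls, and Itga2b itself had 1.37 ± 0.605 CPM (Fra-2-labelled) and 1.59 ± 0.514 CPM (controls).

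Itgav, the alpha-v chain itself, measured 363, 324, 376 and 462 CPM in the Fra-2-labelled libraries, against 250, 305, 389 and 332 CPM in the controls. The groups overlapped and the log2 fold change of 0.26 did not pass (SE 0.139, adjusted p = 0.683 in edgeR). Its exons share 5.90% of their length with the transcript gene Gm13684. The beta subunits Itgb8 and Itgb6, which with alpha-v release active TGF-beta from its latent complex, were scarce. Itgb8 averaged 15.2 ± 1.88 CPM in the Fra-2-labelled libraries and 15.8 ± 3.89 CPM in the controls. Itgb6, mainly an epithelial subunit, averaged 2.10 ± 1.28 CPM (Fra-2-labelled) and 2.42 ± 0.526 CPM (controls). Per length, Itgb5 made up 81.4 ± 2.07% of these 4 beta subunits in the Fra-2-labelled libraries and 80.6 ± 2.04% in the controls, and Itgb3 15.3 ± 1.89% (Fra-2-labelled) and 14.2 ± 2.99% (controls). Both shares overlapped between groups. The summed level of the 4 was 50.0 ± 4.08 CPM per kb in the Fra-2-labelled libraries against 34.4 ± 3.94 CPM per kb in the controls.

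Itga5, the alpha subunit of the classical fibronectin receptor, is ENSMUSG00000000555 at chr15:103344286-103366763 on the minus strand. It measured 263, 217, 229 and 236 CPM in the Fra-2-labelled libraries and 176, 161, 178 and 179 CPM in the controls. The groups did not overlap, and the controls lay close together. Itga5 rose 1.36-fold (log2 fold change 0.45, SE 0.0945, adjusted p = 0.0385 in edgeR). The call held without control 4 or Fra-2 library 2 and was lost when any one of the other 6 libraries was left out, where the adjusted p reached 0.152. Its log2 fold change lay between 0.39 and 0.49 over all 16 other settings. Its ligand fibronectin (Fn1) measured 3604, 2829, 3826 and 3945 CPM in the Fra-2-labelled libraries and 2340, 2539, 2782 and 2902 CPM in the controls. Fra-2 library 2 lay within the upper controls, and the log2 fold change of 0.43 did not pass (SE 0.117, adjusted p = 0.137 in edgeR). Within a library the log2 ratio of Itga5 to Fn1 ran from -4.07 to -3.71 in the Fra-2-labelled libraries and from -4.02 to -3.74 in the controls and overlapped between groups.

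Itga8 marks lung mesenchyme and smooth muscle and, with beta1, is the receptor for nephronectin. It had the largest log2 fold change of all tested members, 1.04 (SE 0.233), but did not pass in edgeR (adjusted p = 0.077). Its levels were 156, 104, 207 and 191 CPM in the Fra-2-labelled libraries and 55.3, 68.7, 98.8 and 98.1 CPM in the controls. The groups did not overlap, though Fra-2 library 2 lay just above the upper controls. Without that library the log2 fold change was 1.21 and passed (adjusted p = 0.0117 in edgeR). Its adjusted p ran from 0.000153 in DESeq2 to 0.357 with no filter on low counts, and 5 of 16 other settings called it. Its exons share 5.05% of their length with the antisense gene E030013I19Rik. Nephronectin (Npnt) measured 201, 154, 213 and 202 CPM in the Fra-2-labelled libraries and 59.7, 99.0, 144 and 139 CPM in the controls. These groups did not overlap either, with a log2 fold change of 0.81 (SE 0.235, adjusted p = 0.209 in edgeR). The log2 ratio of Itga8 to Npnt overlapped between groups, at -0.57 to -0.04 in the Fra-2-labelled libraries and -0.54 to -0.11 in the controls. Per length, Itga8 made up 20.8 ± 4.13% of the 4 RGD-binding alpha subunits (those that bind the Arg-Gly-Asp motif) in the Fra-2-labelled libraries and 14.1 ± 2.38% in the controls. The share of Itgav was 33.5 ± 2.54% (Fra-2-labelled) and 38.9 ± 3.14% (controls). The shares of Itga8 and of Itgav each overlapped between groups.

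**Figure D3:**
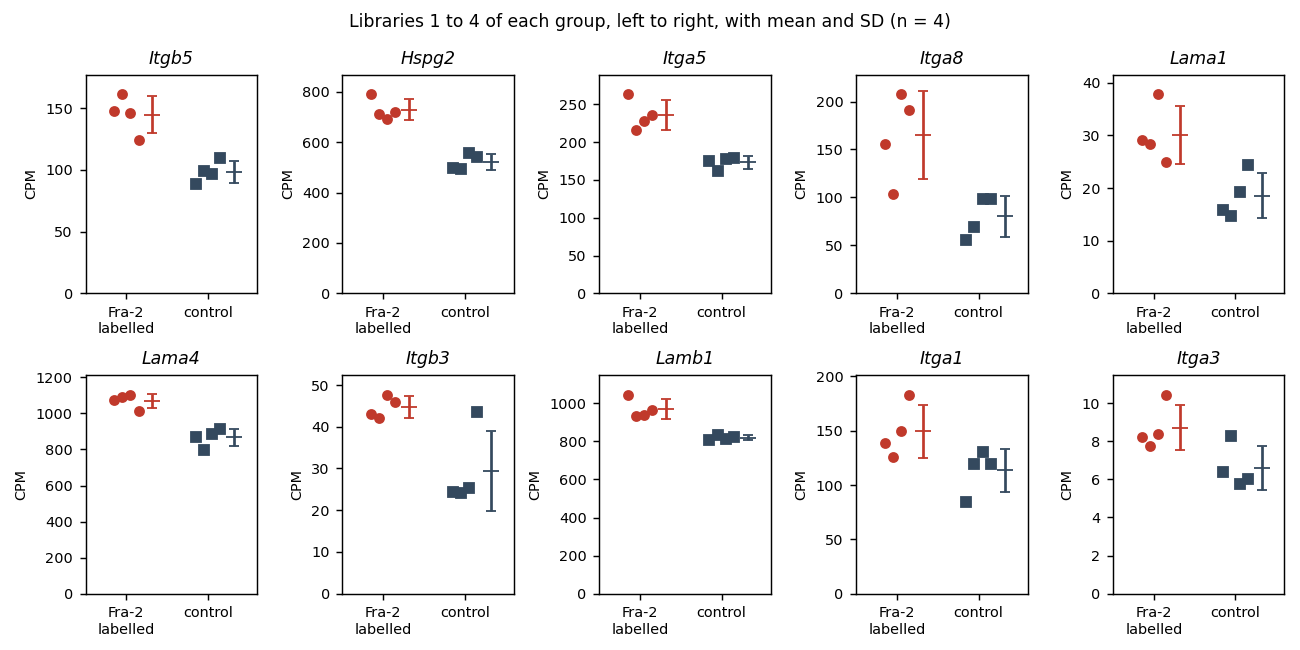
CPM of the 10 members with an unadjusted edgeR p under 0.05 in each library (points, replicates 1 to 4 from left to right), with the mean and SD of 4 libraries beside them. The Fra-2-labelled libraries lie above every control for Itgb5, Hspg2, Itga5, Itga8, Lama1, Lama4 and Lamb1, and control 4 stands with them for Itgb3.

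The 2 alpha subunits that bind tenascin, vascular adhesion molecules and fibronectin stood far apart in level. Itga9 had 1670, 1661, 1671 and 1465 CPM in the Fra-2-labelled libraries and 1619, 1613, 1550 and 1605 CPM in the controls. The groups overlapped, with a log2 fold change of 0.02 and a 95% interval of -0.17 to 0.21. Its ligand tenascin-C (Tnc) averaged 7084 ± 560 CPM in the Fra-2-labelled libraries and 6693 ± 676 CPM in the controls (log2 fold change 0.08, adjusted p = 0.925 in edgeR). Itga4 averaged 47.2 ± 6.96 CPM (Fra-2-labelled) and 41.6 ± 5.77 CPM (controls), which per length was 3.38 ± 0.498 CPM per kb (Fra-2-labelled) and 2.98 ± 0.413 CPM per kb (controls). Its partner on neighbouring cells, Vcam1, averaged 60.9 ± 15.1 CPM (Fra-2-labelled) and 40.6 ± 14.2 CPM (controls, adjusted p = 0.532 in edgeR).

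Itgb1 measured 2046, 1780, 1940 and 2121 CPM in the Fra-2-labelled libraries and 1802, 1881, 2032 and 2037 CPM in the controls. Its log2 fold change of 0.03 had a 95% interval of -0.18 to 0.23. The level of Itgb1 per length was 1.36 to 1.59 times the summed level of its 12 alpha partners in the Fra-2-labelled libraries and 1.53 to 1.65 times that sum in the controls. Itga9 alone made up 58.4 to 67.6% of the alpha sum in the Fra-2-labelled libraries and 66.6 to 72.9% in the controls.

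Collagen-binding alpha subunits were led by Itga1, a collagen IV receptor subunit of mesenchymal and smooth muscle cells. Itga1 measured 139, 126, 150 and 183 CPM in the Fra-2-labelled libraries and 84.4, 120, 130 and 120 CPM in the controls. Fra-2 library 2 lay below control 3 and the log2 fold change of 0.40 did not pass (SE 0.143, adjusted p = 0.35 in edgeR). Its ligand gene Col4a1 averaged 1389 ± 131 CPM (Fra-2-labelled) and 1292 ± 50.5 CPM (controls). Itga11, a fibrillar collagen receptor of fibroblasts, averaged 7.11 ± 1.36 CPM in the Fra-2-labelled libraries and 7.91 ± 1.66 CPM in the controls, beside 5852 ± 602 CPM (Fra-2-labelled) and 6056 ± 678 CPM (controls) of Col1a1. Itga10, the chondrocyte collagen receptor, averaged 5.77 ± 2.63 CPM (Fra-2-labelled) and 5.11 ± 1.23 CPM (controls) and Itga2, the epithelial and platelet one, 4.41 ± 0.710 CPM (Fra-2-labelled) and 4.07 ± 0.704 CPM (controls). Itga1 thus supplied 71.8 ± 7.34% of this class per length in the Fra-2-labelled libraries and 66.0 ± 5.97% in the controls, and its share overlapped between groups.

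Laminin-binding alpha subunits were scarce beside their ligands. Itga3, Itga6 and Itga7 together reached 2.72 ± 0.326 CPM per kb in the Fra-2-labelled libraries and 2.08 ± 0.306 CPM per kb in the controls, where the laminin alpha chains reached 138 ± 4.23 CPM per kb (Fra-2-labelled) and 117 ± 8.59 CPM per kb (controls). Itga3, which binds laminins with the alpha5 chain, measured 8.25, 7.77, 8.38 and 10.4 CPM in the Fra-2-labelled libraries and 6.38, 8.27, 5.75 and 6.02 CPM in the controls. Control 2 lay among the Fra-2-labelled libraries and the difference did not pass (log2 fold change 0.40, SE 0.184, adjusted p = 0.564 in edgeR). Itga6 averaged 8.79 ± 1.1 CPM (Fra-2-labelled) and 6.59 ± 2.09 CPM (controls) and Itga7, the muscle laminin receptor, 1.82 ± 0.310 CPM (Fra-2-labelled) and 1.61 ± 0.600 CPM (controls). Itgb4, the epithelial partner of alpha6 in hemidesmosomes, averaged 3.28 ± 1.83 CPM (Fra-2-labelled) and 3.42 ± 1.05 CPM (controls). The epithelial marker sums given above stand beside Itga3, Itga6 and Itgb4, and their part in these levels was not tested. The non-integrin laminin and perlecan receptor dystroglycan (Dag1) was far more abundant per length, at 73.6 ± 8.66 CPM per kb in the Fra-2-labelled libraries and 65.5 ± 13.3 CPM per kb in the controls.

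Integrin subunits of leukocytes were scarce. Itgal, Itgam and Itgax, partners of beta2, averaged 6.70 ± 1.21, 7.63 ± 2.12 and 1.69 ± 0.596 CPM in the Fra-2-labelled libraries. The same genes averaged 6.23 ± 2.54, 6.02 ± 3.55 and 0.995 ± 0.664 CPM in the controls. Itgb2 averaged 5.69 ± 1.6 CPM (Fra-2-labelled) and 5.52 ± 2.27 CPM (controls), and Itgb7, which pairs with alpha4 and alphaE, 6.30 ± 3.80 CPM (Fra-2-labelled) and 4.49 ± 2.34 CPM (controls). Itgae averaged 0.851 ± 0.196 CPM (Fra-2-labelled) and 1.14 ± 0.749 CPM (controls), and Itgad, with at most 2 counts in a library, was not tested. The most abundant alpha subunit of these per length, Itgam, measured 8.62, 4.84, 7.28 and 9.78 CPM in the Fra-2-labelled libraries and 2.89, 3.25, 7.77 and 10.2 CPM in the controls. Itgb7 measured 6.69, 11.5, 4.03 and 2.97 CPM in the Fra-2-labelled libraries and 3.56, 7.93, 3.76 and 2.71 CPM in the controls. Both overlapped widely between groups. None of the 6 tested subunits passed in edgeR, at an unadjusted p under 0.05, in DESeq2 or in limma-voom. Control 1, the lowest library for the leukocyte marker sum, was also the lowest for Itgal, Itgam, Itgax and Itgb2.

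All 10 laminin chains had a log2 fold change above 0, between 0.02 and 0.70, under each scaling tried, though Lama2, Lama3, Lamb2, Lamb3 and Lamc3 took either sign when single libraries were left out. None passed in edgeR. At an unadjusted p under 0.05 in edgeR, 3 were higher (30%), where 5.17% of all tested genes were higher and 3.53% lower. DESeq2 called 2 higher (Lama1 and Lama4), beside 272 genes higher and 97 lower over the whole table. By limma-voom 0 were called. Lama4, the alpha chain of mesenchymal and vessel wall laminins, measured 1075, 1089, 1104 and 1014 CPM in the Fra-2-labelled libraries and 870, 799, 888 and 911 CPM in the controls. The groups did not overlap, with a log2 fold change of 0.30 (SE 0.0883, adjusted p = 0.173 in edgeR). Lama1, the alpha chain of early embryonic basement membranes, measured 29.1, 28.4, 37.8 and 25.0 CPM in the Fra-2-labelled libraries and 15.9, 14.7, 19.2 and 24.4 CPM in the controls. Control 4 came within 1 CPM of Fra-2 library 4. The log2 fold change of Lama1 was 0.70 (SE 0.176, adjusted p = 0.0975 in edgeR), and it passed without control 4, at 0.86 with an adjusted p of 0.0259. In all, 7 members (17.9%) had groups that did not overlap with the Fra-2-labelled libraries higher, where 3.35% of all tested genes did.

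Lama2, the alpha chain of muscle basement membranes, averaged 422 ± 39.5 CPM in the Fra-2-labelled libraries and 417 ± 55.7 CPM in the controls. Lama5, the main alpha chain under epithelium and endothelium, averaged 224 ± 23.1 CPM (Fra-2-labelled) and 197 ± 34.8 CPM (controls). Lama3, an epithelial chain, averaged 7.99 ± 1.11 CPM (Fra-2-labelled) and 7.65 ± 1.82 CPM (controls). By level per length Lama4 made up 64.3 ± 1.49% of the alpha chains in the Fra-2-labelled libraries and 61.3 ± 1.65% in the controls. Lama2 made up 18.7 ± 1.47% (Fra-2-labelled) and 21.7 ± 1.90% (controls), Lama5 14.2 ± 1.64% (Fra-2-labelled) and 14.7 ± 2.15% (controls), and Lama1 2.24 ± 0.333% (Fra-2-labelled) and 1.62 ± 0.286% (controls). Each of these shares, that of Lama4 included, overlapped between groups. Lama4, Lama2, Lama5, Lama1 and Lama3 kept that order of abundance in both group means.

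Lamb1 measured 1045, 933, 936 and 963 CPM in the Fra-2-labelled libraries and 805, 832, 813 and 825 CPM in the controls. The groups did not overlap, and the log2 fold change of 0.24 did not pass (SE 0.0864, adjusted p = 0.34 in edgeR). Lamb2, the beta chain of mature and vascular basement membranes, averaged 389 ± 43.2 CPM (Fra-2-labelled) and 374 ± 39.9 CPM (controls). Lamb3, the epithelial beta chain, averaged 1.34 ± 0.663 CPM (Fra-2-labelled) and 1.11 ± 0.271 CPM (controls). Lamc1 measured 2906, 2545, 2827 and 2723 CPM in the Fra-2-labelled libraries and 2079, 2253, 2568 and 2619 CPM in the controls. Fra-2 library 2 lay below controls 3 and 4 (log2 fold change 0.21, SE 0.101, adjusted p = 0.602 in edgeR). Lamc3 averaged 11.0 ± 3.54 CPM (Fra-2-labelled) and 9.86 ± 4.48 CPM (controls). In each of the 8 libraries the summed level per length was lowest for alpha chains, higher for beta chains and highest for gamma chains. Gamma chains summed to 334 ± 19.1 CPM per kb and beta chains to 162 ± 3.39 CPM per kb in the Fra-2-labelled libraries, against 289 ± 31.8 CPM per kb for gamma chains and 144 ± 6.00 CPM per kb for beta chains in the controls.

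Perlecan and agrin, both proteoglycan linkers, differed in how they compared between groups. Hspg2 (ENSMUSG00000028763) lies at chr4:137468769-137570630 on the plus strand. It measured 789, 712, 693 and 718 CPM in the Fra-2-labelled libraries and 495, 493, 557 and 542 CPM in the controls. All Fra-2-labelled libraries lay above all controls. Hspg2 rose 1.4-fold (log2 fold change 0.48, SE 0.0918, adjusted p = 0.0215 in edgeR). The call was lost without Fra-2 library 1, 3 or 4 or without control 2 or 3, with an adjusted p of up to 0.0949 and a log2 fold change between 0.44 and 0.52. Agrn, known for clustering acetylcholine receptors through Lrp4 and MuSK in muscle, measured 89.1, 114, 97.9 and 108 CPM in the Fra-2-labelled libraries and 112, 87.1, 115 and 113 CPM in the controls. Its log2 fold change of -0.06 had a 95% interval of -0.31 to 0.19. Itga5, Lama4, Lama5 and Hspg2 are also made by endothelial cells, whose marker sums are given above. The nidogens did not pass. Nid1 measured 1742, 1445, 1928 and 2123 CPM in the Fra-2-labelled libraries and 1764, 1346, 1783 and 1693 CPM in the controls, and Nid2 averaged 65.7 ± 6.78 CPM (Fra-2-labelled) and 55.6 ± 11.7 CPM (controls). Nid2 shares 8.45% of its exonic length with Rtraf.

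The promoters of the 3 called members are shown because these genes passed the test and Fra-2 is a DNA-binding protein. For each, the 250 bases before the RefSeq start are shown on the strand of the gene in build GRCm38.p6, at chr16:33829415-33829664 (plus strand) for Itgb5, chr15:103366792-103367041 (minus strand) for Itga5 and chr4:137468553-137468802 (plus strand) for Hspg2. Capitals mark GC boxes, GGGCGG or its reverse complement CCGCCC.
Itgb5: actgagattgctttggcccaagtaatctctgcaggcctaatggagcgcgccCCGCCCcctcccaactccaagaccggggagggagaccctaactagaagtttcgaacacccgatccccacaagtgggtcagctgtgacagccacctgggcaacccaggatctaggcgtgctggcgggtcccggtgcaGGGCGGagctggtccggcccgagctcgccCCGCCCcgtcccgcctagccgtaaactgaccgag
Itga5: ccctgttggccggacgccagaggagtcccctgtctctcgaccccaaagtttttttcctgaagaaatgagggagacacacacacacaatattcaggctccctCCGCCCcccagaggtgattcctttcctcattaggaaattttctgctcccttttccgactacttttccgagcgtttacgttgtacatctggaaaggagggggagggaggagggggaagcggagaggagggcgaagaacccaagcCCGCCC
Hspg2: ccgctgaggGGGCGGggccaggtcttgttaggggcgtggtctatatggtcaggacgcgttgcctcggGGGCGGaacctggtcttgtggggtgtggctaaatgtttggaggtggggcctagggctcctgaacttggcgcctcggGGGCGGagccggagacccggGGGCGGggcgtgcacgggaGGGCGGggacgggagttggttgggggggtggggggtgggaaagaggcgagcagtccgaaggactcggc
Hspg2 held 5 GC boxes, Itgb5 held 3 and Itga5 held 2. The bases just after the RefSeq start of Itga5 were not found in any GENCODE transcript of that gene, while those of Itgb5 and Hspg2 were. For Hspg2 the GENCODE gene starts at chr4:137468769, inside the stretch shown. Windows of 300 bases, from 250 before to 50 after a start, were given for 26 of the 40 members (30 windows). Itga6, Itga7, Itgad, Itgae, Itgal, Itgb2, Itgb3, Itgb4, Lama1, Lama3, Lama4, Lamc1, Lamc3 and Nid2 had no window. A GC box on either strand was in 16 of these 30 windows (53.3%) and in 35.7% of 32851 windows of all genes. The AP-1 motif TGANTCA, which reads the same on both strands, was in 3 of the 30 windows (10%), those of Itga3, Itga9 and Itgax, and in 7.81% of all windows. The related motif TGACGTCA was in 0 of the 30 and in 1.79% of all, and also reads the same on both strands. No stretch of letters can match both motifs at 1 position. These letters were not in the windows of Itgb5, Itga5 or Hspg2.

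Receptor and ligand levels were set side by side for 12 pairs as log2 ratios within each library, which do not depend on library scaling. In 1 pair the groups did not overlap: Lrp4 over Agrn was 1.23 to 1.35 in the Fra-2-labelled libraries and 0.80 to 1.13 in the controls. Lrp4, a receptor for agrin, measured 227, 267, 246 and 262 CPM in the Fra-2-labelled libraries and 195, 191, 220 and 220 CPM in the controls. The log2 fold change of Lrp4 was 0.28 (SE 0.0967, adjusted p = 0.322 in edgeR). Dag1 over Hspg2 was -0.85 to -0.44 (Fra-2-labelled) against -0.57 to -0.15 (controls), and Itga1 over Col4a1 was -3.63 to -2.77 (Fra-2-labelled) against -3.94 to -3.36 (controls). This 1 pair of 12 stands beside 5.76% of tested genes whose groups did not overlap in either direction, by gene level. The share among ratios of other genes was not computed.

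**Figure D4:**
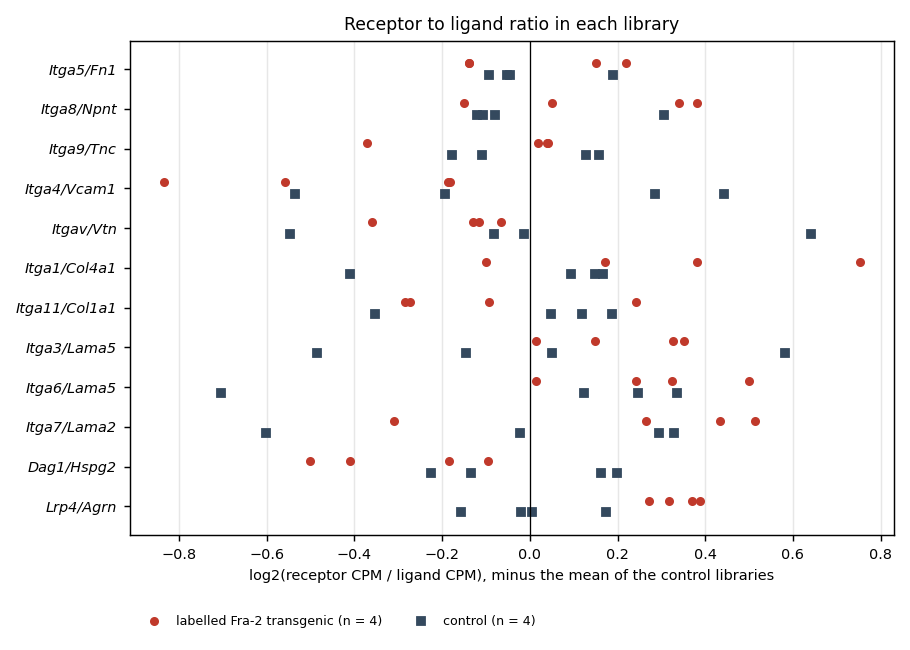
Log2 ratio of receptor CPM to ligand CPM for 12 pairs, 1 point per library (circles for Fra-2-labelled libraries, squares for controls), minus the mean of the 4 controls of that pair. The groups separate for Lrp4 over Agrn, by 0.34 between their means, and overlap for Itga5 over Fn1, where the means differ by 0.02.

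Other genes of the same structures were read from the same fit. Of 22 tested matrix and cell-surface ligands of integrins, 0 were called in either direction in edgeR or limma-voom, 8 were higher and 0 lower at an unadjusted p under 0.05, and DESeq2 called 2 higher. At that unadjusted level 36.4% of the ligands were higher, where 5.17% of all tested genes were higher and 3.53% lower. The median log2 fold change of the ligands was 0.22, beside -0.01 over all tested genes, and the most abundant per length was Col1a1. Of 24 tested integrin adaptors and regulators at the membrane, 0 were called in edgeR or limma-voom. At an unadjusted p under 0.05 in edgeR, 4 were higher and 1 lower, and DESeq2 called 1 higher (median log2 fold change 0.08). The share higher at that unadjusted level was 16.7% of these 24 genes, beside 5.17% of all tested genes. The kindlin gene Fermt2, the most abundant of them per length, averaged 487 ± 64.5 CPM in the Fra-2-labelled libraries and 478 ± 39 CPM in the controls. Ilk, whose exons share 89.7% of their length with Rrp8 and Taf10, had at most 7 counts in a library and was not tested.

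Among non-integrin receptors for basement membrane, the syndecan gene Sdc2 was the most abundant per length. It averaged 624 ± 51.9 CPM (Fra-2-labelled) and 610 ± 56.3 CPM (controls). Of 20 other basement membrane components, Smoc2 and Col18a1 were called higher and Col4a6 lower, with log2 fold changes of 2.72, 1.12 and -1.05 (adjusted p = 2.66e-07, 0.00172 and 0.0489 in edgeR). The share called higher was 10%, where 0.72% of all tested genes were called higher and 0.298% lower. At an unadjusted p under 0.05 in edgeR, 7 of the 20 were higher (35%) and 3 lower, where 5.17% of all tested genes were higher and 3.53% lower. DESeq2 called 5 higher and 2 lower, and limma-voom 2 higher and 1 lower. Smoc2 averaged 57.3 ± 8.56 CPM in the Fra-2-labelled libraries and 8.71 ± 0.691 CPM in the controls, Col18a1 32.2 ± 2.92 CPM (Fra-2-labelled) and 14.9 ± 2.72 CPM (controls), and Col4a6 8.08 ± 2.95 CPM (Fra-2-labelled) and 16.7 ± 0.866 CPM (controls). Sparc, the most abundant component per length, averaged 11006 ± 676 CPM (Fra-2-labelled) and 9573 ± 1558 CPM (controls, adjusted p = 0.703 in edgeR). Col4a1, Col4a2 and Npnt stand in both this list and that of the ligands.

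Calls among the members depended on the libraries used. The number called higher was 0 without Fra-2 library 1 or 3 or control 2 or 3, 1 without Fra-2 library 4 (Itgb5) or control 1 (Hspg2), 4 without Fra-2 library 2 and 5 without control 4. With 8 libraries and another scaling, filter or test, Itgb5, Hspg2 and Itga5 were called in each of the 8 alternatives.

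**Figure D5:**
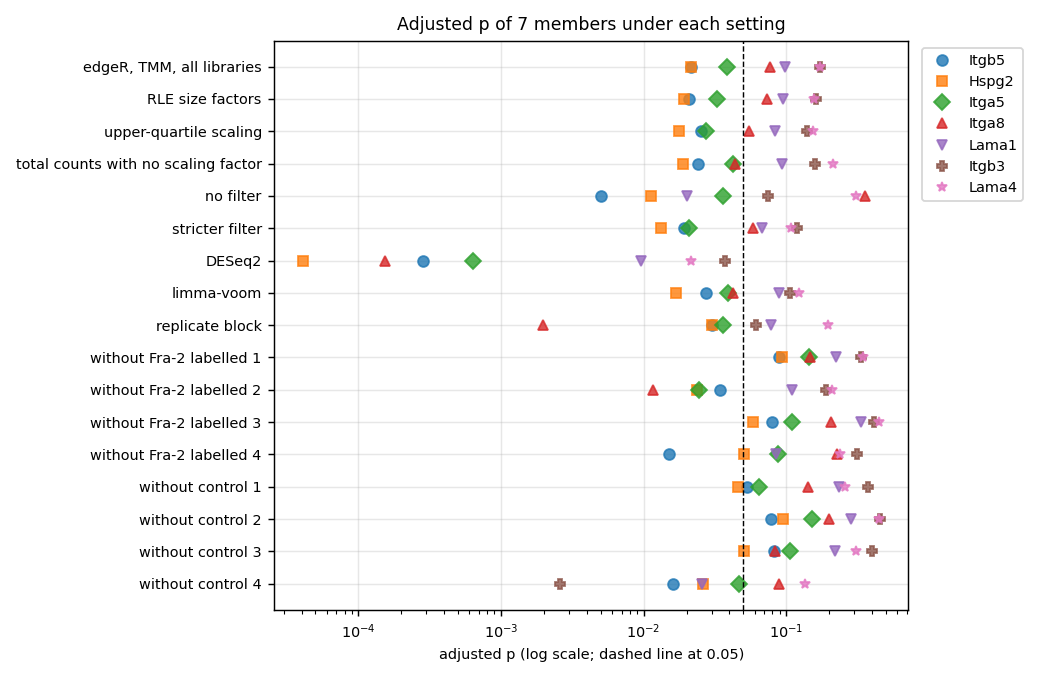
Adjusted p on a log axis for 7 members under the edgeR fit with TMM scaling, 8 alternatives and the 8 fits that leave out 1 library, with a dashed line at 0.05. Itgb5, Hspg2 and Itga5 lie left of the line whenever all 8 libraries are used and lie right of it in 5, 5 and 6 of the 8 fits without a library.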

How the data were processed

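RNA-seq libraries of lung myofibroblasts were made from 50 ng of total RNA by poly-A selection, cDNA amplification and transposase-based library preparation, per the labels' protocols. Raw counts per mouse Ensembl gene were deposited by the authors as 1 table, with a column for each library. A human build, GRCh38, is named in the submitters' processing notes. The sources used here name no aligner, counter or strand setting, so reads shared by overlapping genes may be lost or misassigned. Of 40 members, 9 share exonic bases with another gene (up to 8.45%).

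Identifiers were matched to GENCODE M21 (42462 of 43432). Genes kept by filterByExpr (minimum count 10, minimum total 15) numbered 15422. edgeR 4.0.16 in R 4.3.3 was run with TMM scaling, robust dispersions and the quasi-likelihood F-test, two-sided, adjusted over all tested genes by Benjamini-Hochberg, with a threshold of 0.05. Intervals are 95%, and an SE is the size of the log2 fold change over the root of F. CPM use TMM-scaled sizes, and levels per length divide by the union of exons. Alternatives were scaling by RLE, by upper quartile or by total counts, no filter, a stricter filter (5 CPM in 4 libraries), DESeq2 1.42.0, limma-voom (limma 3.58.1), replicate number as a block and leaving out each library. Total counts of 29926239 to 41335957 set the counting error. Within groups, libraries differed by more than sampling noise (chi-square per gene 36 to 155), and all 8 were kept.

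On counts simulated for these 15422 genes and 8 libraries, the procedure recovered 22% of genes with a 1.5-fold change. It recovered 48% of those with a 2-fold change, 90% with 4-fold and 100% with 8-fold, with 6 false calls among 136. Members, lists and pairs were chosen with earlier results of these data known. Per-library values are given for members with an unadjusted p under 0.05 and for the most abundant member per length of each class. Called companion genes and the most abundant of each list are named, except for a result that is not reported here, and other genes named were chosen after their values were seen. Promoter sequences are those of RefSeq, build GRCm38.p6.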

Additional observations from a re-analysis of the deposited data

Results flagged for a closer look

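Within each group of 4 libraries, the gap of the highest or lowest library to its nearest neighbour was set against the range of the group (Dixon's test at its critical value for 4 samples). Of 80 groups tested, over the 39 tested members and Fosl2, 6 held a library that stood apart, where chance gives about 1 in 20. Among the Fra-2-labelled libraries, library 4 was low for Itga9, at 1465 CPM where the others were 1661 CPM or more, and library 3 was low for Itga7, at 1.35 CPM. Among the controls, control 4 was high for Itgb3, at 43.7 CPM where the next was 25.2 CPM, and its removal brought Itgb3 past the threshold. Control 2 was high for Itgae, at 2.25 CPM, and low for Agrn, at 87.1 CPM. Control 1 was low for Itgb6, at 1.63 CPM.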

How the results depend on the processing

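Itgb5, Hspg2 and Itga5 kept their calls in the 8 alternatives that used all libraries, and the count of members called lower was 0 throughout. DESeq2 called 7 members higher, adding Itga8, Lama1, Itgb3 and Lama4, and called 272 genes higher and 97 lower over the whole table, against 111 and 46 in edgeR. Over the 8 fits that leave out 1 library, the number of members called higher ran from 0 to 5, that of all genes higher from 50 to 153 and that of all genes lower from 22 to 52. Fosl2 was called in none of the settings run. A sign other than that in the full fit was seen in limma-voom for Itga10 (-0.021). Without single libraries it was seen for members that were never called, whose log2 fold changes over these fits were Itgb2 (-0.14 to 0.32), Itgae (-0.60 to 0.16), Lama2 (-0.040 to 0.098), Itgb4 (-0.52 to 0.13), Lama3 (-0.062 to 0.20), Itgb8 (-0.16 to 0.060), Itga7 (-0.022 to 0.36), Itgb1 (-0.011 to 0.072), Lamb3 (-0.058 to 0.53), Lamc3 (-0.078 to 0.48), Itgb6 (-0.50 to 0.14), Itgal (-0.13 to 0.35), Itga2b (-0.43 to 0.012), Agrn (-0.14 to 0.0037), Lamb2 (-0.0072 to 0.12), Itga10 (-0.039 to 0.45). The cause of these shifts was not tested. Same-numbered libraries of both groups did not vary together throughout (correlations of 0.00177, 0.219, 0.0797 and 0.310), so the numbers were not taken as pairs, and 2 of the 4 Fra-2-labelled libraries correlated best with the control of their own number. The replicate block called 4 members higher, Itga8 among them, and 137 genes higher and 53 lower. At the recovery rates above, changes below 2-fold are often missed with 4 libraries a group, and members near 1 CPM are limited by their counts.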
